A study of Mus musculus with 19 samples.

Results

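Matricellular proteins are secreted glycoproteins that do not build the load-bearing matrix themselves but link it to integrins and other receptors on the cell surface. In the artery wall they are known to be produced in larger amounts by smooth muscle cells and adventitial fibroblasts after injury or mechanical stress, where they alter adhesion, collagen assembly and the release of growth factors such as TGF-β. The 7 genes described here encode the thrombospondins Thbs1 and Thbs2, tenascin-C (Tnc), periostin (Postn), osteopontin (Spp1), fibronectin (Fn1) and SPARC (Sparc). Fibronectin also forms fibrils of its own, on which several of the others are deposited. The genes were taken by symbol from the table of the suprarenal abdominal aorta (SRA), where they are 7 of 20408 genes, and the selection by symbol applies no threshold to their values. All 7 passed the filter on low values, as did 14845 genes in all.

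RNA was sequenced from the SRA of 19 male C57BL6 mice, 24 h after an osmotic pump was placed under the skin. All mice lacked ApoE, carried SMA-CreERT2 (a tamoxifen-dependent Cre driven by the Acta2 promoter, active in smooth muscle cells and in other cells that express Acta2) and had received tamoxifen for 5 days at 8 weeks of age, followed by 7 days of rest. The IKKβ-/- mice were also homozygous for a floxed Ikkβ allele, and the control littermates, called IKKβ+/+, were not. Both genotypes were fed chow. Ang II was given to 5 mice of each genotype, and saline to 5 IKKβ+/+ and 4 IKKβ-/- mice, which makes 4 groups. The labels give the dose of Ang II as a range of 500 to 1000 ng per min per kg, and the study's text gives 1000. The reads on genes numbered 11382573 to 19906694 per mouse. Mouse numbers are not interleaved between the groups and the sources name no batch, so that batch and group cannot be told apart. The deleted gene, Ikbkb, had 533 ± 78.9 normalized counts (SD, n = 9) in IKKβ-/- and 699.7 ± 66.8 (SD, n = 10) in IKKβ+/+ mice (two-sided exact permutation test, p = 0.000152). The lowest IKKβ+/+ mouse was above 8 of the 9 IKKβ-/- mice, and the ninth, X2384, had 672. In bulk tissue, fewer cells of a type and less RNA per cell cannot be told apart. Acta2 and Myh11, which define smooth muscle, were between 113336 and 301107 and between 60999.9 and 167445 normalized counts over all mice. Of 6 mesothelial markers 3 were in the table, and 0 passed the filter.

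The rise of Postn with Ang II in IKKβ+/+ mice and the fall of Thbs2 in both genotypes were the differences among the 7 genes that passed the test (limma, with the adjusted p below 0.1 and a change of more than 1.2 times). For that reason 1 promoter of each is shown, as the 250 bases before the start given by RefSeq for GRCm38.p6. Capitals mark matches to short motifs. The Postn sequence is chr3:54360857-54361106 on the plus strand, just before the annotated gene, and the Thbs2 sequence is chr17:14694263-14694512 on the minus strand. Both run 5′ to 3′ in the direction of the gene.
Postn: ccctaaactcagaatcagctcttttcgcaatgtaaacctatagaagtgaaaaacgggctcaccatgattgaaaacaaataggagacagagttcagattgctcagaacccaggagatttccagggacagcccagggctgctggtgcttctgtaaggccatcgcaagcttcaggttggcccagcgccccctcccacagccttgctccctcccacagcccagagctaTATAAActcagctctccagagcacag
Thbs2: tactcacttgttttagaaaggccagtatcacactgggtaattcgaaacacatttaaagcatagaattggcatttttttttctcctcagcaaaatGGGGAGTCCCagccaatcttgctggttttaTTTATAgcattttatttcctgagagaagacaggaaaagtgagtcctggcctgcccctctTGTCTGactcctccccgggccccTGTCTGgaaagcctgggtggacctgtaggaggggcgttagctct
The capitals in Postn are TATAAA, at -26 to -21 from the start. In Thbs2 they are, from left to right, an NF-kB site on the opposite strand (-156 to -147), TATAAA on the opposite strand (-126 to -121) and CAGACA on the opposite strand at -67 to -62 and at -44 to -39, the last a motif of the kind bound by SMAD proteins. None of these overlap. RefSeq entries were found for 5 of the 7 genes (Postn, Tnc, Spp1, Sparc and Thbs2), with 8 promoters among them. A further promoter of Postn, at chr3:54359017-54359266, is not shown and held no match to the motifs named here. Thbs1 and Fn1 had no entry. On both strands, TATAAA was found in 5 of the 8 promoters, where 12.4% of all 32851 promoters of this length hold it. It began at -126 and -205 in the promoters of Tnc and at -211 in Spp1. The median GC content was 45.8% in the 8 promoters and 52.4% in all, and the shares given here do not allow for this. CAGACA was found in 4 of the 8 (17.1% of all promoters), GGGCGG in 2 (32.7%, both of them promoters of Tnc that overlap and share the site, as they share a TATAAA) and the NF-kB site in 1 (3.9%). TGANTCA, the motif of AP-1, and the CArG box of serum response factor were in 0 of the 8, and in 6.75% and 1.47% of all promoters. A match describes the letters in this window and not the binding of a factor.

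The level of the 7 genes in the aorta covered a wide range. Per kb of exon, which allows genes to be compared, Sparc had the highest mean over the 19 mice at 29171 normalized counts per kb and ranked 15 of 14835 genes with a known length. Postn and Fn1 followed at 7153 and 7005 normalized counts per kb, ranks 47 and 49. Thbs1 was at 1506 per kb and Tnc at 682 per kb, ranks 261 and 707. Thbs2 at 174 per kb and Spp1 at 157 per kb were the lowest, ranks 3189 and 3478. Over single mice, Sparc lay above the other 6 genes without overlap, and each of the further neighbors in this order overlapped. The spread between mice ran differently. The coefficient of variation over all 19 mice was 17% for Sparc, 30.2% for Thbs2, 36.8% for Postn, 39.5% for Fn1, 50.5% for Tnc, 94.1% for Thbs1 and 107% for Spp1.

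**Figure D1:**
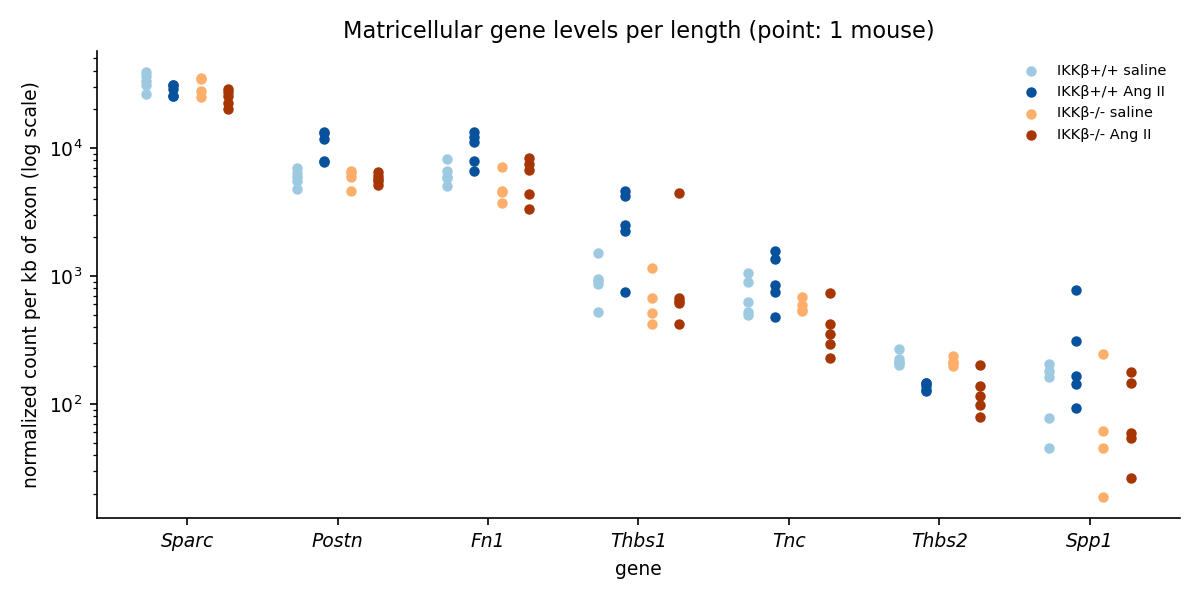
Levels of the 7 genes per length, as normalized counts per kb of exon on a log scale, with 1 point per mouse and the 4 groups side by side. Sparc lay highest with a mean of 29171 per kb, and Thbs2 and Spp1 lowest with means of 174 and 157 per kb.

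Thbs1 encodes thrombospondin-1, a trimeric glycoprotein that binds CD47 and CD36 and can release TGF-β from its latent complex. The gene (ENSMUSG00000040152.8) lies on chromosome 2 of GRCm38 at 118111876 to 118127133. In saline-infused IKKβ+/+ mice it had 3198, 5229.7, 5519, 5750.0 and 9117 normalized counts. In Ang II-treated IKKβ+/+ mice it had 4582 in X2356 and 13755, 15084, 25388 and 28213 in the others. Thus 4 of these 5 mice exceeded all values seen with saline, and the fifth lay among them. Saline-infused IKKβ-/- mice had 2556, 3120.4, 4059 and 6981. In Ang II-treated IKKβ-/- mice, X2380 had 27004 normalized counts and the other 4 had 2584, 3747, 3855 and 4085, so this group was 1 mouse at the level of the highest IKKβ+/+ mice and 4 at the level of saline. The mean went from 5763 ± 2131 (SD, n = 5) to 17404 ± 9535 (SD, n = 5) in IKKβ+/+ mice, a log2 fold change of 1.43 (standard error 0.53, 95% interval 0.32 to 2.54) that did not pass the test (adjusted p = 0.128, limma). For IKKβ-/- mice the log2 fold change was 0.45 (-0.73 to 1.62, adjusted p = 0.741 in limma). It turned to -0.14 without X2380. Without X2356 the value in IKKβ+/+ mice was 1.85 and passed (adjusted p = 0.0315, limma), as it did with only the compared groups in the fit (adjusted p = 0.0672, limma).

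Thbs2 encodes thrombospondin-2, which shares its domains with thrombospondin-1 and is known for its part in the assembly of collagen fibrils and the restraint of vessel growth. It lies on chromosome 17 at 14665500 to 14694235 (ENSMUSG00000023885.9). With saline, IKKβ+/+ mice had 1423, 1472, 1479, 1586 and 1869.7 normalized counts, and IKKβ-/- mice had 1389, 1461, 1492 and 1662. With Ang II, IKKβ+/+ mice had 887, 902, 964, 1018 and 1028. All 5 lay below every saline-infused mouse. Ang II-treated IKKβ-/- mice had 556, 690.4, 814, 976 and, in X2383, 1418. Of these, 4 lay below every saline-infused IKKβ-/- mouse, and X2383 lay among them. Thbs2 fell in IKKβ+/+ mice from 1566 ± 180.0 to 959.7 ± 64.7 normalized counts (SD, n = 5 each), a log2 fold change of -0.70 (standard error 0.17, adjusted p = 0.0235 in limma). The fall in IKKβ-/- mice, from 1501 ± 116 (SD, n = 4) to 891 ± 333 (SD, n = 5), was -0.82 on the log2 scale (standard error 0.18, adjusted p = 0.0173 in limma). The call in IKKβ-/- mice was lost when the fit held only their own groups (adjusted p = 0.116, limma). The direction and the call held with each single mouse left out in both genotypes. The difference between the genotypes' effects was -0.12 with a 95% interval of -0.63 to 0.39.

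Tnc encodes tenascin-C, a large hexameric glycoprotein that is sparse in adult tissue and appears at sites of wound repair and mechanical load. The gene is on chromosome 4 at 63959785 to 64047015 (ENSMUSG00000028364.15). Saline-infused IKKβ+/+ mice had 3834, 4059.8, 4845, 6934 and 8169.8 normalized counts, and the Ang II-treated ones 3719.8, 5792, 6604, 10498 and 12161. The groups overlapped, with 2 of 5 mice above all saline-infused mice and X2356 below them. Values in IKKβ-/- mice were 4129, 4202, 4616 and 5298 with saline, and 1769.8, 2282, 2717, 3291 and, in X2380, 5762 with Ang II. Here 4 of the 5 Ang II-treated mice lay below every saline-infused mouse and X2380 lay above all of them. Neither effect passed the test, with log2 fold changes of 0.42 (-0.23 to 1.06, adjusted p = 0.475) in IKKβ+/+ and -0.64 (-1.32 to 0.04, adjusted p = 0.316) in IKKβ-/- mice by limma. The effects differed by -1.06 (-2.0 to -0.12). This had an unadjusted p under 0.05 but an adjusted p of 0.398 in limma.

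Postn encodes periostin, a fasciclin-domain protein that binds collagen and integrins and is used as a marker of activated fibroblasts and remodeling vessel wall. It lies on chromosome 3 at 54361109 to 54391037 (ENSMUSG00000027750.16). Saline-infused IKKβ+/+ mice had 41490.4, 48111, 51986, 55119.5 and 60211 normalized counts. Ang II-treated IKKβ+/+ mice had 68004, 69269.9, 103053, 113188 and 115489. No value of one group lay within the range of the other, and 3 of the Ang II-treated mice lay well above the other 2. The IKKβ-/- mice had 40391, 51787, 55678 and 57244 with saline, and 44673, 47961, 49391, 52844 and 56749 with Ang II, which lay within the range of saline. Postn rose from 51383 ± 7086 to 93801 ± 23447 (SD, n = 5 each) in IKKβ+/+ mice, a log2 fold change of 0.84 (standard error 0.19, adjusted p = 0.0199 in limma). In IKKβ-/- mice the means were 51275 ± 7610.0 (SD, n = 4) and 50324 ± 4637 (SD, n = 5), a log2 fold change of -0.02 (-0.45 to 0.41, adjusted p = 0.976 in limma). All 5 Ang II-treated IKKβ-/- mice lay below all 5 Ang II-treated IKKβ+/+ mice. The rise in IKKβ+/+ mice passed the test with each mouse left out in turn, with log2 fold changes of 0.76 to 0.95. The difference between the effects was -0.86 (-1.45 to -0.27) and did not pass in limma (adjusted p = 0.293). On the recovered reads it passed in DESeq2 (adjusted p = 0.0246) and not in edgeR.

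**Figure D2:**
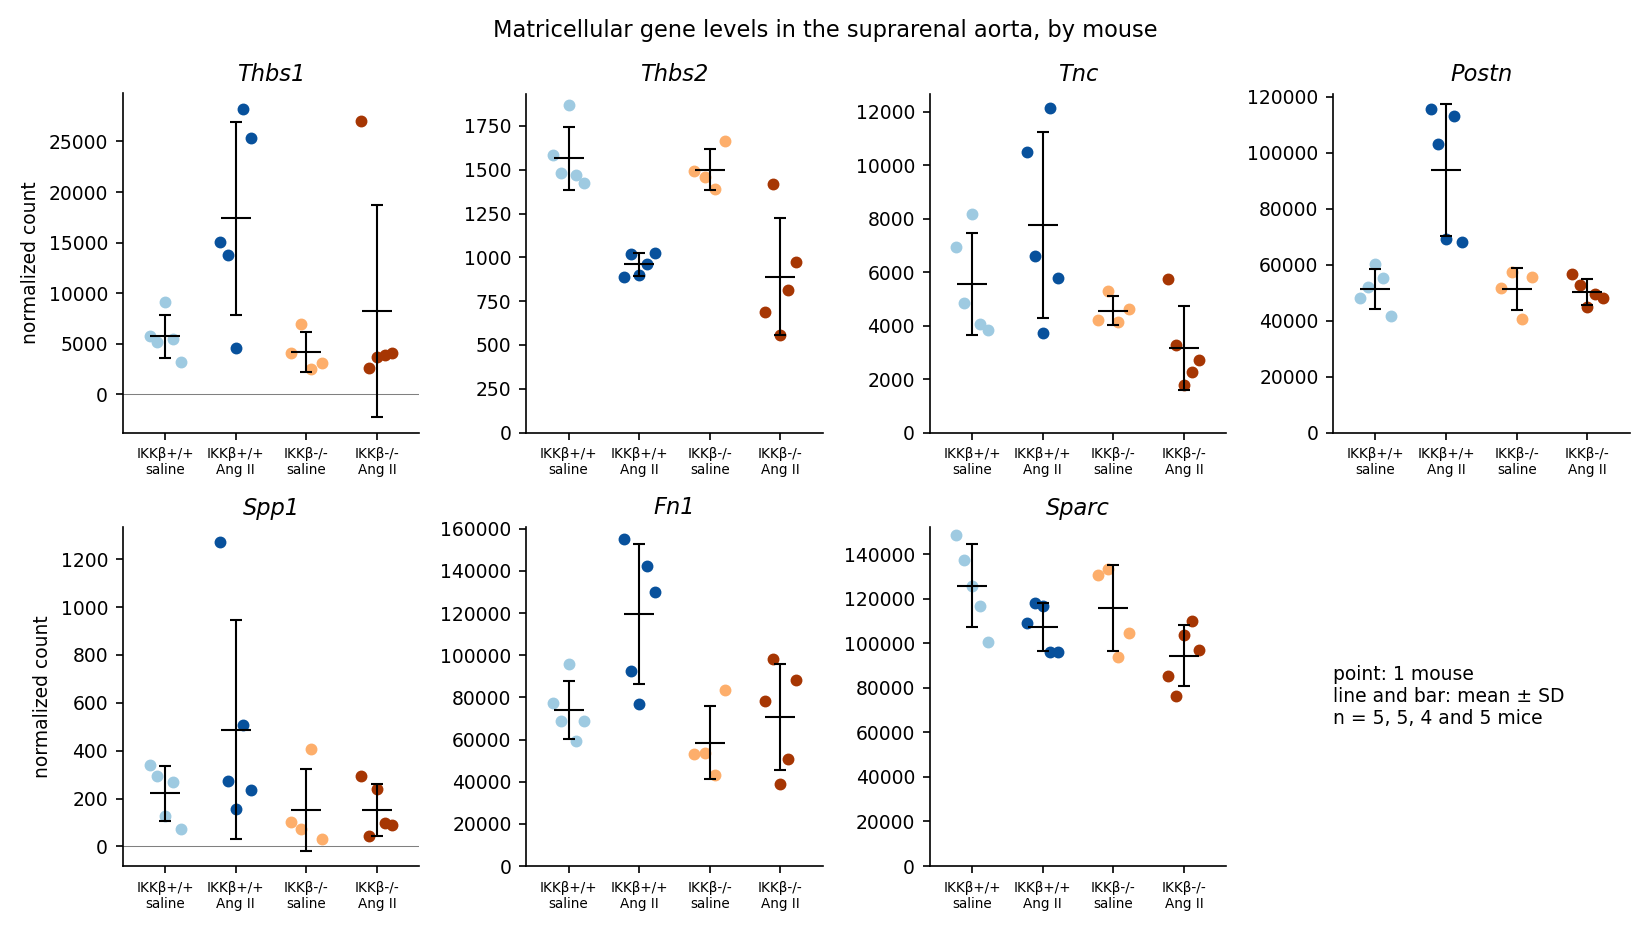
Normalized counts of the 7 genes in each mouse, 1 panel per gene, with the 4 groups on the horizontal axis. Points are mice, and the line and bar are the mean ± SD (n = 5, 5, 4 and 5). The Ang II-treated IKKβ+/+ mice of Postn lie at 68004 and above, over every other mouse, and mouse X2380 stands at 27004 in the Thbs1 panel.

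Spp1 encodes osteopontin, a secreted phosphoprotein that binds αv integrins and CD44 and is made by macrophages, mineralizing cells and smooth muscle cells that have left the contractile state. The gene lies on chromosome 5 at 104435118 to 104441050 (ENSMUSG00000029304.14). It was the least abundant and the most variable of the 7. Saline-infused IKKβ+/+ mice had 74.9, 128, 268, 296 and 341 normalized counts, and Ang II-treated ones had 155, 235, 275, 508 and, in X2350, 1270.3. The IKKβ-/- mice had 31.2, 74.8, 101 and, in X2406, 405 with saline and 43.7, 89.97, 97.9, 239.8 and 296 with Ang II. The groups overlapped in every comparison. The log2 fold change was 0.92 (-0.44 to 2.29, adjusted p = 0.452) in IKKβ+/+ and 0.30 (-1.15 to 1.75, adjusted p = 0.870) in IKKβ-/- mice by limma. The first was 0.47 without X2350, and the second changed sign without X2380 or X2409.

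Fn1 encodes fibronectin, the adhesive glycoprotein that cells assemble into fibrils through integrins. It lies on chromosome 1 at 71585520 to 71653200 (ENSMUSG00000026193.15), and the count sums all of its splice forms. With saline, IKKβ+/+ mice had 59156, 68626, 68747, 77514 and 95686 normalized counts. With Ang II they had 77031 (X2356), 92725, 129988, 142503 and 154997, and 3 of the 5 lay above all saline-infused mice. IKKβ-/- mice had 43326, 53165, 53711 and 83455 with saline and 39129, 50613, 78474, 88016 and 98373 with Ang II, with values on both sides of the saline range. The log2 fold change was 0.66 (0.08 to 1.24, adjusted p = 0.183) in IKKβ+/+ mice and 0.24 (-0.38 to 0.86, adjusted p = 0.732) in IKKβ-/- mice by limma. Without X2356 the first was 0.81 and passed (adjusted p = 0.0882, limma).

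Sparc encodes SPARC, also called osteonectin, a collagen-binding protein that loosens cell adhesion. It lies on chromosome 11 at 55394500 to 55423183 (ENSMUSG00000018593.13). The mean was 125848 ± 18516 with saline and 107098 ± 10759 with Ang II in IKKβ+/+ mice (SD, n = 5 each). In IKKβ-/- mice it was 115626 ± 19329.5 (SD, n = 4) and 94450.1 ± 13686 (SD, n = 5). Single mice ranged from 76361 to 148544, and the groups overlapped in all comparisons. The log2 fold changes with Ang II were -0.23 (-0.66 to 0.21) and -0.29 (-0.75 to 0.17), and neither passed the test (adjusted p = 0.582 and 0.539 in limma).

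Counted over the 7 genes, 2 passed the test with Ang II in IKKβ+/+ mice, where 8.66% of all tested genes did. The groups did not overlap in 2 genes, Postn and Thbs2, against 8.42% of all genes. Of the 7 fitted log2 fold changes 5 were above 0 and 2 below, with a median of 0.66, while the median over all genes was 0.01. By DESeq2 and with array quality weights, 4 members passed (Thbs1 and Fn1 as well), where 12.7% and 14% of all genes did. The count was also 4 without X2356 (12.9% of all genes), and 3 with only the compared groups in the fit (Thbs1 as well, 12.8%). The share of all genes fell to 2.88% without X2350, 2.99% without X2358 and 4.21% without X2378, each with 2 members called. In IKKβ-/- mice 1 of 7 passed, where 5.29% of all genes did, and 0 were without overlap, also against 5.29%. The fitted values were above 0 for 3 genes and below for 4, with a median of -0.02. None of the 7 differences between the effects passed in limma, as for all 14845 genes (0%). At an unadjusted p under 0.05 there were 2 (Postn and Tnc), where 11.1% of all genes were. DESeq2 called 1 (Postn; 1.88% of all genes) and edgeR 0. All 7 differences were below 0, with a median of -0.62, where 49.8% of all genes were above 0. This was not particular to the 7 genes. The differences of all 9 smooth muscle markers were below 0 as well (median -0.51), 4 of them with an unadjusted p under 0.05. Of 9 fibroblast markers 8 were above 0 and 1 below (median 0.73). The effects of both genotypes enter each difference, and the 7 genes are not independent of each other.

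**Figure D3:**
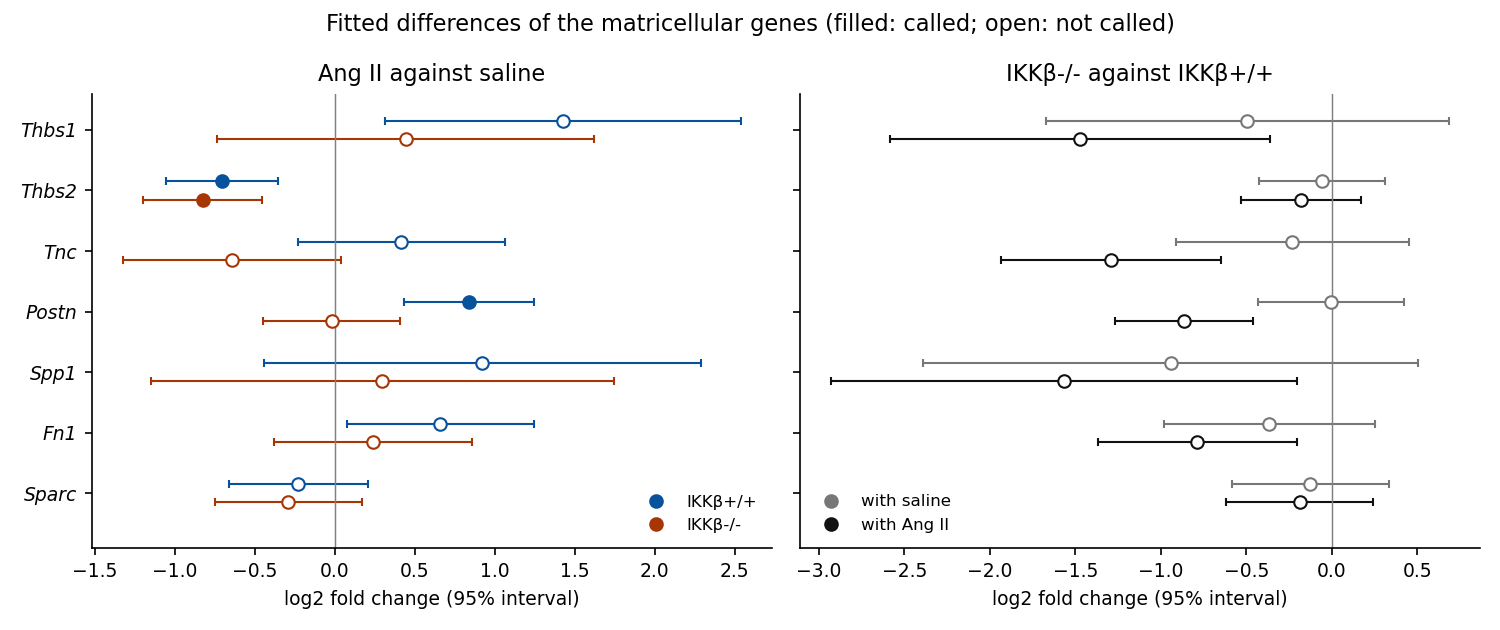
Fitted log2 fold changes of the 7 genes with 95% intervals. The left panel gives Ang II against saline in each genotype and the right panel IKKβ-/- against IKKβ+/+ mice with each infusion. Filled points passed the test: Postn at 0.84 and Thbs2 at -0.70 in IKKβ+/+ mice and Thbs2 at -0.82 in IKKβ-/- mice.

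The genotypes were also compared within each infusion. With saline, 0 of the 7 genes passed in limma (5.47% of all genes did), 0 were without overlap (8.76% of all genes), 0 had an unadjusted p under 0.05 (19.2% of all genes), and edgeR and DESeq2 called 0. The log2 fold changes of IKKβ-/- against IKKβ+/+ mice ran from -0.94 for Spp1 (-2.39 to 0.50) to 0.00 for Postn (-0.43 to 0.42). With Ang II, 0 of the 7 passed in limma, where 0.128% of all genes did, and 1, Postn, was without overlap (1.54% of all genes). Before adjustment, p was below 0.05 for 5 genes: Thbs1, Tnc, Postn, Spp1 and Fn1. Of all genes, 14.3% were below it. The fitted log2 differences were -1.57 for Spp1 (-2.93 to -0.20), -1.47 for Thbs1 (-2.58 to -0.36), -1.29 for Tnc (-1.93 to -0.65), -0.86 for Postn (-1.27 to -0.46) and -0.79 for Fn1 (-1.37 to -0.20). For Thbs2 and Sparc they were -0.18 and -0.19, with intervals that include 0. The adjusted p was lowest for Postn (0.124) and Tnc (0.153) in limma. Here 3 members passed in DESeq2 (Postn, Tnc and Fn1), with 3.51% of all genes, and 1 in edgeR (Postn), with 0.108%. Single mice decided the limma count. It was 3 (Thbs1, Tnc and Postn) without X2356 and also without X2380, where 3.73% and 1.92% of all genes passed, and 2 (Tnc and Postn) without X2383 (0.781%).

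The mice of a group differed from each other across several of the genes at once. Among Ang II-treated IKKβ+/+ mice, X2350 had the highest Postn, Spp1 and Fn1, X2358 the highest Thbs1 and Tnc, and X2356 the lowest Thbs1, Tnc, Spp1 and Fn1. Relative to the mean of saline-infused IKKβ+/+ mice on the log2 scale, X2356 was at -0.25 for Thbs1, -0.52 for Tnc and 0.08 for Fn1, while X2358 was at 2.37, 1.19 and 0.97. The library of X2356 also differed in markers of neuronal and Schwann cells. Their summed level was 4593 normalized counts there and at most 1387 (X2386) in any other mouse. Dbh reached 1674 in X2356 and at most 21.3 in the other groups. The part of such tissue in the values of X2356 was not tested. Among Ang II-treated IKKβ-/- mice, X2380 had the highest Thbs1, Tnc, Postn and Spp1, and X2384 the lowest Thbs2, Tnc, Postn and Fn1. X2380 was at 2.31 for Thbs1 and at 0.15 for Postn. Over all 19 mice, Pearson's r of the log2 levels was highest between Postn and Fn1 (0.75, and 0.49 for deviations from group means), Thbs1 and Postn (0.73 and 0.49), Tnc and Postn (0.72 and 0.73) and Thbs1 and Tnc (0.71 and 0.74). It was lowest between Thbs2 and Spp1 (-0.36 and -0.55). These are descriptions over 19 libraries that share depth and tissue makeup.

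**Figure D4:**
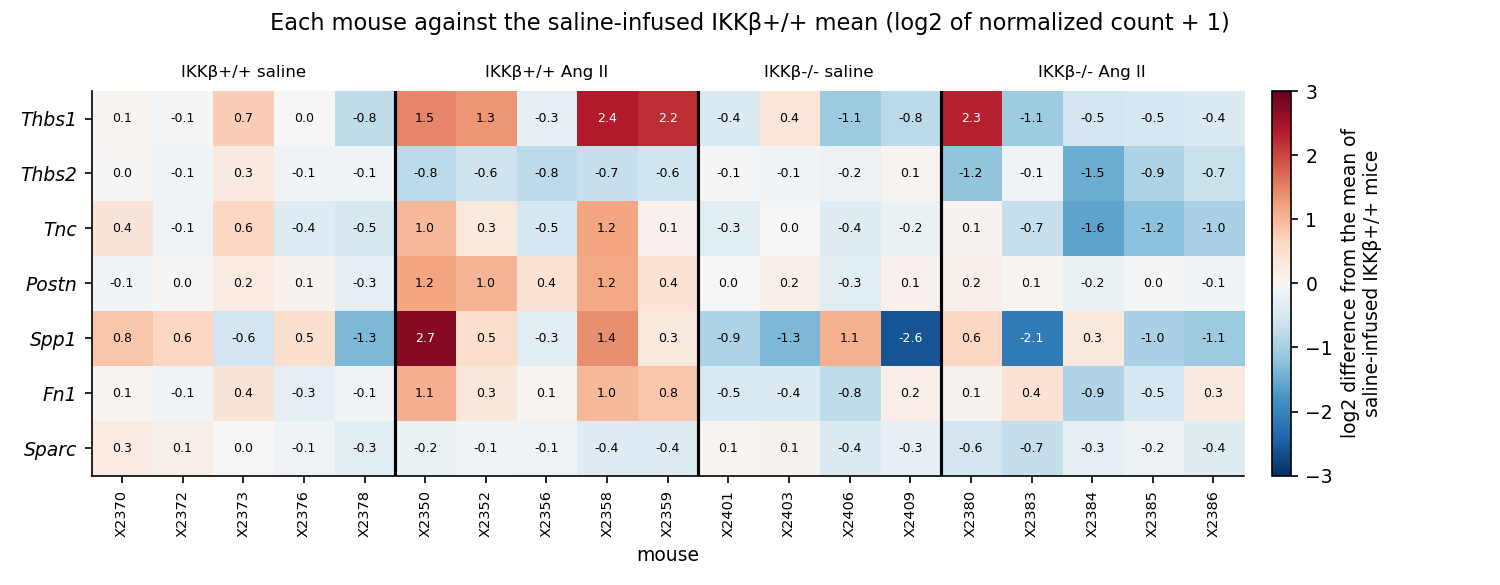
Each of the 19 mice (columns, grouped) against the mean of saline-infused IKKβ+/+ mice for each gene (rows), as the difference in log2(normalized count + 1). Red is higher and blue is lower. All Ang II-treated mice are below 0 in the Thbs2 row, X2383 least so, and the Thbs1 row is red in 4 Ang II-treated IKKβ+/+ mice and in X2380, at 2.31.

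The genes whose levels over the 19 mice were most like each member were found among 11420 tested genes with a mean of at least 50 normalized counts, with r of deviations from group means given second. For Fn1 they were Col4a2 (0.96 and 0.92), Col4a1 (0.94 and 0.88) and Cdc42bpb (0.94 and 0.93), of which Col4a1 and Col4a2 encode the main chains of basement membrane collagen. For Tnc they were the actin-associated Actn4 (0.95 and 0.91) and Wdr1 (0.91 and 0.92), and Lrrfip1 (0.91 and 0.94). For Postn they were Qsox1 (0.93 and 0.90), an enzyme that forms disulfide bonds, the fibronectin receptor subunit Itga5 (0.91 and 0.79) and Ppp1r18 (0.91 and 0.88). For Thbs2 they were Dkk3 (0.93 and 0.77), Ctnna3 (0.92 and 0.82) and Itga8 (0.92 and 0.85), the last an integrin subunit of smooth muscle and mesenchyme. For Thbs1 they were Anxa3 (0.92 and 0.89), Loxl2 (0.89 and 0.84), a lysyl oxidase, and Vps36 (0.89 and 0.83). For Sparc they were Ppic (0.88 and 0.82), Dll1 (0.88 and 0.86) and Bsg (0.83 and 0.76). For Spp1 they were Arg1 (0.87 and 0.84), which macrophages use to break down arginine, Fgd3 (0.80 and 0.70) and Cdkn1a (0.79 and 0.76).

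Receptors of these proteins were taken from a list of 24 genes, of which 23 were tested. With Ang II in IKKβ+/+ mice 5 of the 23 rose and 3 fell, where 8.66% of all genes were called. The largest rise was that of Itga5, the integrin subunit that pairs with Itgb1 to bind fibronectin, from 4996 ± 2109.7 to 18474 ± 13029 normalized counts (SD, n = 5 each) and by 1.72 on the log2 scale (adjusted p = 0.0148, limma). Cd44, a receptor for hyaluronan and osteopontin, rose by 1.01 (adjusted p = 0.0898, limma), and Sdc4, a heparan sulfate co-receptor for fibronectin, by 0.78 (adjusted p = 0.0837, limma). Each of these calls was lost in 6 of 10 fits with a mouse left out, while that of Itga5 was lost in 0 of 10. Stab1, a scavenger receptor of macrophages and endothelium that takes up SPARC, fell by 0.69 on the log2 scale (adjusted p = 0.0906, limma), a call lost in 7 of 10 such fits. Receptors called in IKKβ-/- mice were 4 of 23 (5.29% of all genes), of which 2 rose and 2 fell. Cd36, a thrombospondin receptor that also takes up fatty acids and is abundant in fat and capillaries, went from 360.2 ± 89.8 (SD, n = 4) to 2398 ± 1608 (SD, n = 5), a log2 fold change of 2.35 (adjusted p = 0.0222, limma). Its means in IKKβ+/+ mice were 1044 ± 517 with saline and 1092 ± 496 with Ang II (SD, n = 5 each). Calr, a chaperone that binds thrombospondin at the cell surface, rose by 0.78 (adjusted p = 0.0129, limma). Sdc1, another syndecan, fell in both genotypes, by 0.66 and 0.62 on the log2 scale. Cacna2d1, the calcium channel subunit that binds thrombospondins, was called lower in both, at -0.58 and -0.42. The call in IKKβ-/- mice was lost in 5 of 9 fits with a mouse left out and in 3 of 7 other settings. The calls of Sdc1 and Cacna2d1 in IKKβ+/+ mice were not followed through these fits and settings. With saline, Stab1 was lower in IKKβ-/- mice by a log2 difference of -0.94 (adjusted p = 0.0575, limma), a call lost in 4 of 9 such fits. None of the 23 receptors passed for the difference between effects or between genotypes with Ang II, where 4 and 9 had an unadjusted p under 0.05 (11.1% and 14.3% of all genes).

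Among relatives of the 7 genes, 22 of 29 listed were tested. In IKKβ+/+ mice 2 of the 22 rose and 1 fell with Ang II, where 8.66% of all genes were called. The CCN genes Ccn3 and Ccn5, which encode further matricellular proteins, rose by 0.82 and 0.69 on the log2 scale (adjusted p = 0.0246 and 0.0410, limma), and the call of Ccn5 was lost without X2350 (adjusted p = 0.124, limma). Fbln5, which encodes fibulin-5 of the elastic fibers, fell in both genotypes, from 17724 ± 1334 to 8872 ± 2260.1 (SD, n = 5 each) in IKKβ+/+ mice and from 16666 ± 2595 (SD, n = 4) to 9558 ± 972 (SD, n = 5) in IKKβ-/- mice. These log2 fold changes were -1.03 and -0.79 (adjusted p = 0.000988 and 0.0102, limma), and both calls held with each mouse left out. Ccn1 in IKKβ-/- mice fell by 2.71 on the log2 scale (adjusted p = 0.0189, limma), from a saline group of 27508 ± 16726 normalized counts (SD, n = 4) to 3815 ± 1746 (SD, n = 5). Its means in IKKβ+/+ mice were 7586 ± 3595 with saline and 13006 ± 13595 with Ang II (SD, n = 5 each). Thbs3, a pentameric thrombospondin, was called higher with Ang II in IKKβ-/- mice at 0.53 (adjusted p = 0.0679, limma). With saline it was lower in IKKβ-/- than in IKKβ+/+ mice at -0.59 (adjusted p = 0.0583, limma). These 2 calls were lost in 6 and 4 of 9 fits with a mouse left out. For the difference between effects, 3 of the 22 relatives had an unadjusted p under 0.05, and for the genotypes with Ang II 4 did, beside 11.1% and 14.3% of all genes, with 0 passing in limma.

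The matrix partners and processing genes were 18, all tested. In IKKβ+/+ mice 2 of the 18 rose with Ang II, where 8.66% of all genes were called. These were Tgm2, the transglutaminase that cross-links fibronectin, by 0.89, and Plod2, a lysyl hydroxylase of collagen, by 0.48 on the log2 scale (adjusted p = 0.0409 and 0.0621, limma). None passed in IKKβ-/- mice (limma, where 5.29% of all genes did), and 1 had an unadjusted p under 0.05 (17.8% of all genes). With saline, Fbn1 (fibrillin) was called lower in IKKβ-/- mice at -0.81 (adjusted p = 0.0779, limma). The calls were lost in 3 of 10 fits with a mouse left out for Tgm2, 5 of 10 for Plod2 and 8 of 9 for Fbn1. For the difference between effects 0 of the 18 passed in limma, and 1 had an unadjusted p under 0.05 (11.1% of all genes). Between genotypes with Ang II 0 passed in limma, and 8 had an unadjusted p under 0.05 (14.3% of all genes). There 2 of the fitted values were above 0 and 16 below.

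All 27 genes of signals known to act upstream of matricellular genes (TGF-β, SMAD, serum response factor, AP-1 and others) were tested. With Ang II 0 rose in either genotype. A fall was called for 2 in IKKβ+/+ and 4 in IKKβ-/- mice, where 8.66% and 5.29% of all genes were called. In IKKβ+/+ mice Fos, a subunit of AP-1, and Mrtfb, a co-activator of serum response factor, were called lower at -1.71 and -0.47 (adjusted p = 0.0880 and 0.0574, limma), calls lost in 8 and 4 of 10 fits with a mouse left out. A fall in IKKβ-/- mice was found for 4, all of them early-response transcription factors, with log2 fold changes of -2.92 for Fos, -2.45 for Jun, -1.91 for Egr1 and -1.22 for Fosl2 (adjusted p = 0.0144, 0.00368, 0.0151 and 0.0414, limma). Jun went from 5965 ± 2971 (SD, n = 4) to 987 ± 139 (SD, n = 5). Its means in IKKβ+/+ mice were 2912 ± 1067 with saline and 2392 ± 1847 with Ang II (SD, n = 5 each). For Egr1 and Fosl2 the log2 fold changes in IKKβ+/+ mice were -0.99 (-1.78 to -0.21) and 0.54 (-0.08 to 1.16). Neither was called there (adjusted p = 0.134 and 0.32, limma). The calls of Fos, Jun and Egr1 in IKKβ-/- mice held with each mouse left out, and that of Fosl2 was lost without X2401 (adjusted p = 0.147, limma). With saline, Mrtfb was called lower in IKKβ-/- mice at -0.48 (adjusted p = 0.0842, limma), a call lost in 7 of 9 such fits. The difference between effects passed in limma for 0 of the 27 genes and had an unadjusted p under 0.05 for 6, beside 11.1% of all genes. Between genotypes with Ang II 0 passed in limma, and 10 had an unadjusted p under 0.05 (14.3% of all genes). There 5 of the fitted values were above 0 and 22 below.

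**Figure D5:**
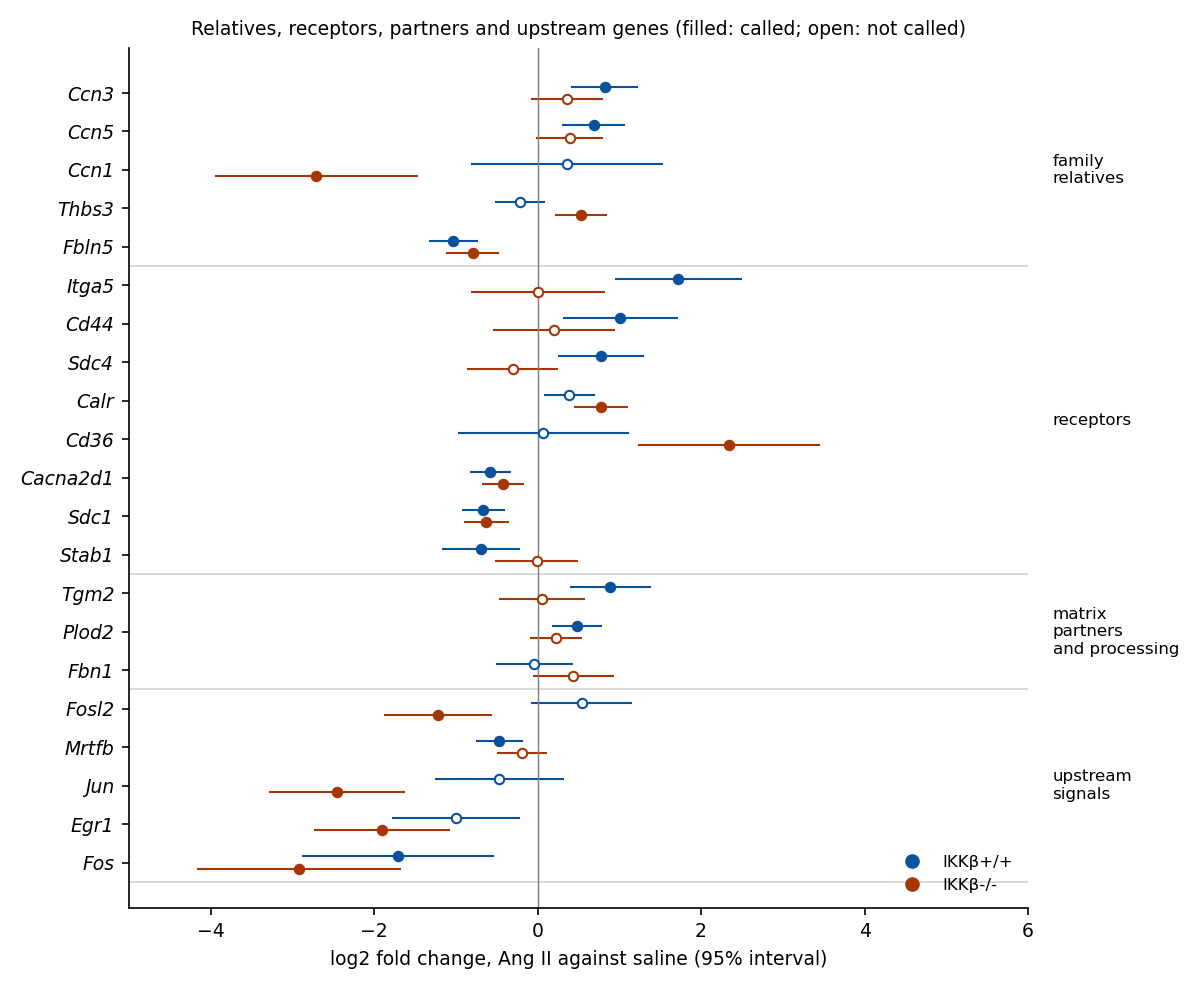
Log2 fold changes with 95% intervals for the named relatives, receptors, matrix partners and upstream genes with Ang II in IKKβ+/+ and IKKβ-/- mice. Filled points passed the test. Itga5 stands at 1.72 in IKKβ+/+ and 0.00 in IKKβ-/- mice, and Jun at -0.47 and -2.45.

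Markers of cell types moved with the infusions as well. The shares of all genes called were 8.66% with Ang II in IKKβ+/+ mice, 5.29% in IKKβ-/- mice and 5.47% between genotypes with saline. Of 9 smooth muscle markers, 3 were called higher with Ang II in IKKβ+/+ mice and 0 in IKKβ-/- mice. Their summed level was 345200 to 462764 with saline and 476576 to 663062 with Ang II in IKKβ+/+ mice, and 446988 to 610559 and 318972 to 568062 in IKKβ-/- mice. The highest summed levels with Ang II were those of X2358 and X2350 in IKKβ+/+ and X2380 in IKKβ-/- mice, and the lowest those of X2356 and X2384, the same mice that were highest and lowest for several members. Between genotypes with Ang II, 0 of the 9 smooth muscle markers passed in limma (0.128% of all genes did). There all 9 fitted values were below 0, with a median of -0.21. The summed level of 9 fibroblast markers ran from 51472 in X2350 to 145981 in X2356 among Ang II-treated IKKβ+/+ mice and was 45412 in X2380. With Ang II in IKKβ+/+ mice 1 of the 9 fell. Of 5 adipocyte markers tested, 4 rose in IKKβ-/- mice, with summed levels (6 genes) of 1019.7 to 4241 with saline and 2315 to 25079 with Ang II, the highest in X2384. Their defining gene Adipoq went from 60.1 ± 75.3 (SD, n = 4) to 1644 ± 1554 (SD, n = 5). Its means in IKKβ+/+ mice were 365 ± 387 with saline and 426 ± 217 with Ang II (SD, n = 5 each). Of 10 macrophage markers, 1, Lgals3, rose with Ang II in IKKβ+/+ mice and 0 in IKKβ-/- mice, and 2, Adgre1 and Cd68, were lower in IKKβ-/- mice with saline. Most of the list did not move with Lgals3. With Ang II in IKKβ+/+ mice 3 of the 10 fitted values were above 0 and 7 below (median -0.21). In IKKβ-/- mice 8 were above 0 and 2 below (median 0.15). The summed level of the macrophage markers was highest in X2384, at 15057, and lowest in X2380, at 4475. Platelet and red cell markers were called in 0 of 7 genes in any comparison (unadjusted p under 0.05 for 1 with Ang II in IKKβ+/+ mice, beside 20.3% of all genes), and of T and B cell markers 1 of 6 was tested. Calls for the myofibroblast list were 1 higher and 1 lower of 5 in IKKβ+/+ and 1 higher in IKKβ-/- mice, for endothelial cells 1 lower of 7 in IKKβ+/+ and 1 higher in IKKβ-/- mice, for skeletal and cardiac muscle 1 higher of 5 in IKKβ+/+ mice and for neuronal and Schwann cells 1 higher of 5 in IKKβ-/- mice. The part of these cells in the levels of the 7 genes was not tested.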

How the data were processed

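RNA from the SRA of 19 mice was measured by poly(A) RNA-Seq with single reads. Per the labels and methods, the authors used Trimmomatic 0.35 for trimming, STAR 2.7.1a for alignment to GRCm38 and for counts on Gencode genes, and DESeq2 1.30.1 for normalization. The deposited signal values are normalized counts (reads over the size factor of the library), and 100% were whole multiples of 1 read within a tolerance of 0.05. For X2359 1 read was worth 0.994, so near 1 that this check says little of that mouse. Recovered reads per mouse ranged from 11382573 to 19906694, which limits precision mainly for genes with few reads. No column of the table was left unused among those of single mice.

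Groups follow the labels. A gene was kept if 4 or more mice had 10 or more normalized counts (14845, with 5563 left out). Values were compared as log2(normalized count + 1) with limma 3.58.1 (lmFit, eBayes with a trend, R 4.3.3) in 1 fit with 4 group means, two-sided, with Benjamini-Hochberg adjustment over all tested genes. A gene was called when its adjusted p was below 0.1 and its change exceeded 1.2 times. Fold changes of low genes are understated on this scale. No source states separate litters or cages, so p-values measure the spread between these mice. The 36 pairs of mice within groups showed no repeated library. Levels per kb used exon lengths of Gencode M21, whose coordinates matched the table for 99.1% of genes and for all 7 described here.

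Members, lists and tests were chosen with earlier results of these data known. Named were all 7 members, at most 4 called genes with the largest change per list and comparison, and the 3 genes most like each member. Adgre1, Cd68, Lgals3 and Adipoq were named after their values were seen. Alternatives were a pseudocount of 4, no filter, only the compared groups, array quality weights, TMM scaling, edgeR 4.0.16 and DESeq2 1.42.0 on recovered reads, thresholds of 0.05 on the adjusted p or 1.5 on the fold and each mouse left out. The same alternatives for listed genes were chosen after seeing the data. Simulated data served to test the fit. Protein sequences were not analysed here.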

Additional observations from a re-analysis of the deposited data

Results flagged for a closer look

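Thbs1 in mouse X2380 stood apart from the other Ang II-treated IKKβ-/- mice. Its level was 27004 normalized counts, while 2584 to 4085 were found in the remaining 4. On the log2 scale its gap to the nearest mouse was 0.805 of the range of the group, above the Dixon limit of 0.710 for 5 samples. The 28 sets of group values of the 7 genes were examined, of which 1 passed, and chance alone flags about 1 in 20. Among Ang II-treated IKKβ-/- mice the same mouse also had the highest Tnc, Postn and Spp1, the highest summed smooth muscle markers (568062 normalized counts) and the lowest summed fibroblast markers (45412). It had the highest summed platelet and red cell markers (4611) and endothelial markers (25575) of that group too, and the lowest macrophage markers (4475). Platelet and red cell markers were also high in X2376 (4888, IKKβ+/+ with saline) and X2352 (3680, IKKβ+/+ with Ang II). The part of these cells in the Thbs1 value of X2380 was not tested. Without X2380 the log2 fold change of Thbs1 with Ang II in IKKβ-/- mice was -0.14 in place of 0.45, and the difference of IKKβ-/- from IKKβ+/+ mice with Ang II was -2.06 in place of -1.47.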

How the results depend on the processing

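No paired analysis was possible because no mouse number is shared between groups. The number of the 7 genes called with Ang II in IKKβ+/+ mice was 2, and 4 with array quality weights and in DESeq2 and 3 with only the compared groups. In IKKβ-/- mice it was 1, and 0 with only the compared groups in the fit. For the difference between effects it was 0, and 1 in DESeq2. For the genotypes with Ang II it was 0, and 1 in edgeR and 3 in DESeq2. With 1 mouse left out, these counts ran from 2 to 4, from 1 to 1, from 0 to 0 and from 0 to 3, and with saline from 0 to 0. The cause was not tested. Of 644 refitted log2 values of the 7 genes, 605 kept direction and side of the threshold. The Postn value between genotypes with saline reversed to 0.0209 with array quality weights. With 1 mouse left out, some uncalled values reversed, as the ranges show: with Ang II in IKKβ-/- mice -0.14 to 0.73 for Thbs1, -0.13 to 0.0385 for Postn and -0.25 to 0.97 for Spp1, for the difference between effects -0.31 to 0.0283 for Thbs2, -1.17 to 0.048 for Spp1 and -0.16 to 0.0144 for Sparc, and between genotypes with saline -0.11 to 0.0088 for Thbs2 and -0.079 to 0.11 for Postn. Over all genes, calls with Ang II in IKKβ+/+ mice were 1286, and 2074 with array quality weights. In IKKβ-/- mice they were 785, and 295 with only the compared groups. For the difference they were 0, and 76 with weights, 3 in edgeR and 279 in DESeq2. Between genotypes they were 812 with saline, and 1420, 1902 and 1437 with only the compared groups, weights and DESeq2, and 19 with Ang II, and 1 with only the compared groups and 521 in DESeq2. With 1 mouse left out, these all-gene counts ran from 428 to 1915 (lowest without X2350), from 435 to 1082 (lowest without X2406), from 0 to 79, from 24 to 1726 and from 0 to 553. Of 26 calls of listed genes, 8 were lost in at least 1 of 7 other settings. Those of Cacna2d1 (IKKβ-/-) and Fos (IKKβ+/+) were lost in 3 each, and those of Cd44 and Stab1 (both IKKβ+/+) in 2 each. Those of Sdc4 (IKKβ+/+), Thbs3 (Ang II in IKKβ-/-), and Fbn1 and Mrtfb (both between genotypes with saline) were lost in 1 each.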
